A study of Mus musculus with 6 samples.

Results

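The genes described here are 8 of the insulin and insulin-like growth factor (IGF) receptor pathway to phosphatidylinositol 3-kinase (PI3K) and AKT, chosen by gene symbol, out of 23955 symbols in the deposited table. They are the receptors Insr and Igf1r, the adaptors Irs1 and Irs2, the PI3K regulatory subunit Pik3r1, the PI3K inhibitor Pik3ip1 and the kinases Akt1 and Akt2. All 8 were listed in the table, and 7 had a mean of at least 1 TPM (a transcript level corrected for transcript length and for the total of the library) and entered the test. The remaining member, Irs1, was too low to be tested. In the GENCODE M21 annotation of GRCm38, Insr and Irs2 lie on chromosome 8, Igf1r and Akt2 on chromosome 7, Irs1 on chromosome 1, Pik3r1 on chromosome 13, Pik3ip1 on chromosome 11 and Akt1 on chromosome 12.

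Haematopoietic stem cells (HSCs) were sorted from bone marrow of C57BL/6 mice at 4 months of age as CD150+ CD48- cells of the lineage-negative Sca-1+ c-Kit+ fraction, 20000 cells per library. The db/db mice, labelled obese, carry a germline leptin receptor mutation that is present in every cell, and gave 3 libraries. Their WT littermates, labelled as controls, gave 3 libraries as well, and each of 3 independent experiments supplied 1 library per genotype. Whether several mice were pooled is not stated, so p-values measure the spread between these libraries.

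Insulin and the IGFs bind receptor tyrosine kinases that phosphorylate the IRS adaptors. Phosphorylated IRS proteins recruit PI3K through its regulatory subunit, the catalytic subunit makes a membrane lipid signal, and AKT kinases are activated at that lipid. In blood stem cells, excess PI3K and AKT signalling is known to drive cells out of quiescence, and the FoxO factors that AKT restrains are known to preserve it. Leptin-receptor mutant mice are known for high blood insulin and insulin resistance.

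The whole table set the frame for these genes. The size factors computed from TPM by the median-of-ratios method were 0.915 to 1.23 in db/db and 0.815 to 1.14 in WT libraries, WT replicate 2 having the lowest. Lepr, the mutated gene, averaged 1.997 TPM in db/db and 2.69 TPM in WT HSCs; the db mutation changes splicing, so a total over the gene does not check the labels. The median log2 fold change of all 11931 tested genes was 0.18, so a gene at the middle of the table stood 0.18 above 0, and this shift was 0.00 after median-of-ratios scaling. In limma with Benjamini-Hochberg adjustment, 4 genes passed at an adjusted p under 0.05, which is 0.0335% of those tested, and none of the 7 tested members was among them. After median-of-ratios scaling 1 gene passed, or 0.00838%, again no member. The labelled cell type was checked against its markers. The 6 HSC markers Procr, Slamf1, Kit, Ly6a, Hlf and Mecom summed to 1004 to 1229 TPM in db/db and 770.4 to 1259.9 TPM in WT libraries. Ly6a was the most abundant of the 6, and the sum does not show each marker. Only Slamf1 had an unadjusted limma p under 0.05, as higher in db/db, beside 4.1% of all tested genes. After median-of-ratios scaling 0 of the 6 did, beside 2.49%. The T cell genes Cd3e and Cd3g and the B cell gene Ms4a1 were listed at 0 in all 6 libraries. Summed markers of B cells, T cells, macrophages and adipocytes were each at most 4.74 TPM in any library, those of stroma at most 11.6 TPM, and those of megakaryocytes were 432 to 726 TPM in db/db and 331 to 610 TPM in WT libraries. The 5 granulocyte markers S100a8, S100a9, Ngp, Camp and Ltf summed to 1226 to 3370 TPM in db/db and 170 to 4183 TPM in WT libraries, with WT replicate 1 at the top of the WT range. In TPM as deposited all 5 of these granule genes had an unadjusted limma p under 0.05 as higher in db/db, beside 4.1% of all tested genes. After median-of-ratios scaling 0 of them did, beside 2.49%. All 5 stayed positive, and their median log2 fold change was 1.48 against 1.68 as deposited. With both this scaling and the experiment as a block, all 5 again had an unadjusted limma p under 0.05, beside 2.9%. In TPM as deposited without WT replicate 1, all 5 passed at an adjusted p under 0.05. Without WT replicate 2 none had an unadjusted p under 0.05. The 6 erythroid markers summed to 276 to 1357 TPM in db/db and 65.0 to 130 TPM in WT libraries. Hbb-b2, a haemoglobin gene, was the most abundant of them. Only 3 of the 6 were tested, of which 2 had a positive log2 fold change. Without the filter on low values, 2 of the 6 were positive and the median of the 6 was -0.07, so the sum does not stand for each marker. Hbb-b2 was 1 of the 4 genes that passed in TPM as deposited and did not pass after median-of-ratios scaling. Cd48, which the sort was meant to leave out, was listed at 1.63 to 21.4 TPM in db/db and 1.09 to 5.35 TPM in WT libraries.

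The 8 genes differed widely in level. Ordered by mean TPM over the 6 libraries, Pik3ip1 stood at 107, Akt1 at 91.1, Pik3r1 at 50.7, Akt2 at 48.9, Igf1r at 28.6, Insr at 18.7, Irs2 at 11.8 and Irs1 at 0.06. Among the tested genes, Pik3ip1 lay at percentile 91.4 of mean level and Irs2 at percentile 41.0. The ranges of neighbours in this order overlapped, except for Irs2 and Irs1. Pik3ip1 exceeded Akt1 and Pik3r1 exceeded Akt2 in 4 of 6 libraries, and Akt1 exceeded Pik3r1 and Insr exceeded Irs2 in 5 of 6. Akt2 exceeded Igf1r, Igf1r exceeded Insr and Irs2 exceeded Irs1 in 6 of 6 libraries.

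**Figure D1:**
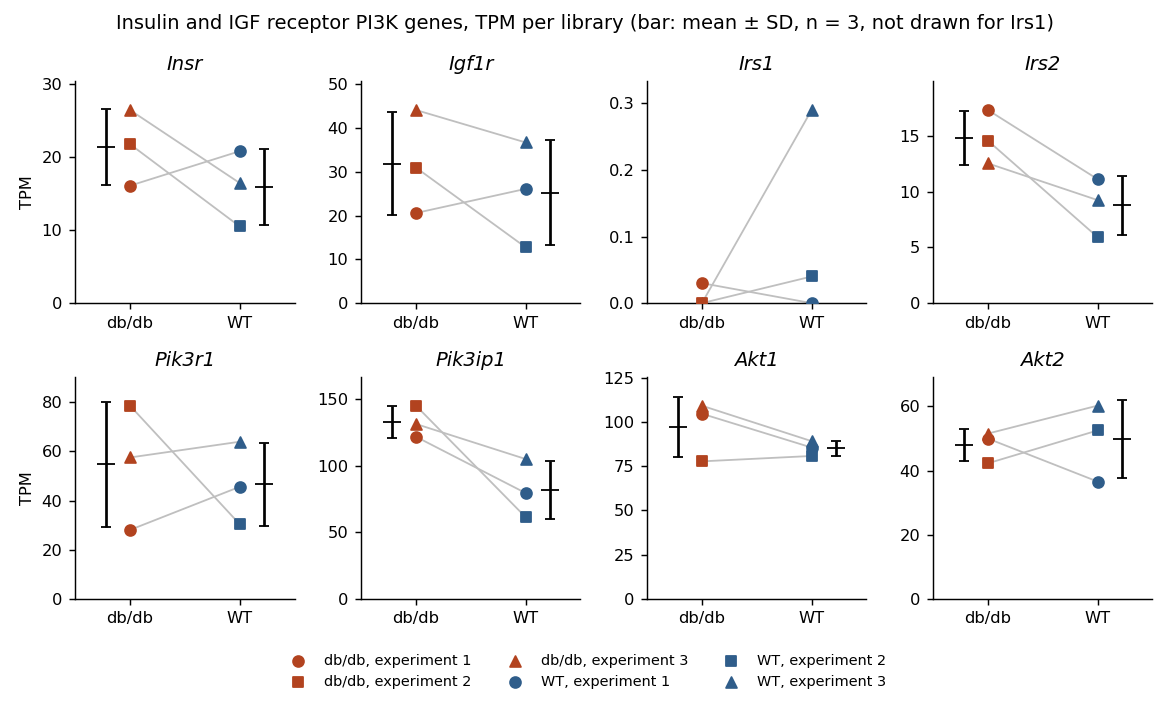
TPM of each of the 8 genes in every library, db/db at left and WT at right of each panel, with grey lines joining libraries of the same experiment and black bars at the mean ± SD of 3 libraries (none drawn for Irs1). In these TPM the groups do not overlap for Irs2, which overlaps after median-of-ratios scaling, and Pik3ip1, and they overlap for the other genes. Irs1 is at or below 0.29 TPM in every library.

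Insr encodes the insulin receptor. It had 16.1, 21.8 and 26.5 TPM in db/db replicates 1, 2 and 3, against 20.8, 10.5 and 16.5 TPM in the WT libraries of the same experiments. The groups overlapped, and db/db was above WT in experiments 2 and 3 and below it in experiment 1. The mean was 21.5 ± 5.20 TPM in db/db and 15.9 ± 5.18 TPM in WT HSCs (SD, n = 3 each). The log2 fold change of Insr was 0.43 (SE 0.38, 95% interval -0.36 to 1.22), which is 0.25 above the median of all genes, and it did not pass (limma, Benjamini-Hochberg adjusted p = 0.920).

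Igf1r encodes the receptor of IGF1 and IGF2. It had 20.6, 31.0 and 44.2 TPM in db/db replicates 1, 2 and 3 and 26.1, 12.8 and 36.7 TPM in WT replicates 1, 2 and 3. As for Insr, db/db was below WT in experiment 1, a difference of -0.33 on the log2 scale, and above it by 1.22 and 0.26 in experiments 2 and 3, and the groups overlapped. WT replicate 2, the library with the lowest size factor, was lowest for both receptors. After median-of-ratios scaling it was still lowest, at 12.9 for Insr and 15.7 for Igf1r. The log2 fold change of Igf1r was 0.38 (SE 0.40, 95% interval -0.438 to 1.204) and did not pass (limma, Benjamini-Hochberg adjusted p = 0.921). Without WT replicate 2 it was -0.02, so its direction rested on that library.

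The balance of the receptors was compared within libraries. Igf1r made up 56.1%, 58.7% and 62.5% of the summed receptor TPM in db/db replicates 1, 2 and 3 and 55.6%, 54.8% and 69.0% in WT replicates 1, 2 and 3. The sum was 36.7, 52.8 and 70.6 TPM in db/db and 47.0, 23.3 and 53.2 TPM in WT libraries. The log2 ratio of Insr to Igf1r was -0.53 ± 0.19 in db/db and -0.59 ± 0.49 in WT HSCs (SD, n = 3 each), a difference of 0.05. This ratio, which does not move with the scaling of a library, overlapped between the groups (exact two-sided permutation test p = 1, adjusted p = 1 over 3 ratios, where the smallest p that 3 against 3 libraries allow is 0.1). Across the 6 libraries the log2 levels of Insr and Igf1r correlated at 0.86 in TPM as deposited and at 0.63 once scaled, given as a description.

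Of the IRS adaptors, Irs2 was measured at a moderate level and Irs1 near 0. Irs1, the main adaptor of muscle and fat, was listed at 0.03, 0 and 0 TPM in db/db replicates 1, 2 and 3 and at 0, 0.04 and 0.29 TPM in WT replicates 1, 2 and 3. Since 3 of the 6 libraries were at 0, no ratio of Irs2 to Irs1 was formed. Irs2, which is known to carry the insulin signal in liver, made up 99.8%, 100% and 100% of the IRS TPM of these 2 genes in db/db replicates 1, 2 and 3 and 100%, 99.3% and 97.0% in the WT libraries. Of the other IRS genes, Irs3 was at most 0.42 TPM and Irs4 was at 0 in all 6 libraries.

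The promoters of Irs1 and Irs2 are printed because the pair differs so much in level while their sequences before the start share short motifs. Each is the 250 bases before the first transcribed base, read on the strand of the gene from RefSeq on GRCm38.p6, a later build than the mm9 of the deposited values. The Irs1 window is chr1:82291440-82291689 on the minus strand and the Irs2 window is chr8:11008930-11009179 on the minus strand. Capitals mark CACGTG, an E-box that reads the same on both strands, and TGTTTTG, the reverse complement of CAAAACA, the core of the insulin response sequence that FoxO factors are known to bind.
Irs1: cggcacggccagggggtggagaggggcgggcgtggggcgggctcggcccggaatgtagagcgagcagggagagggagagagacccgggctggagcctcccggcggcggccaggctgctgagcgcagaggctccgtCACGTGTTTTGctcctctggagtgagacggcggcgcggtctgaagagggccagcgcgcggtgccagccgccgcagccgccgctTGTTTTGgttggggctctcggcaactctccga
Irs2: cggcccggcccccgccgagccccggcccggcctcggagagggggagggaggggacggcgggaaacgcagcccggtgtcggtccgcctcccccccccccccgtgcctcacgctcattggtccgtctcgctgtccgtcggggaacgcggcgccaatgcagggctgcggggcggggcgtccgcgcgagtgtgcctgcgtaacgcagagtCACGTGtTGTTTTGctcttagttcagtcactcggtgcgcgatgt
Irs1 holds the E-box from 115 bases before its start, a TGTTTTG from base 111 that overlaps the end of that box, and another TGTTTTG from base 32. Irs2 holds the E-box from 44 bases before its start and TGTTTTG from base 37, next to it without overlap. The longest runs shared by both windows had 10 bases, among them GTCACGTGTT and a run that begins with TGTTTTG. The GC content was 72.4% in Irs1 and 72.8% in Irs2. Searched on both strands with these motifs chosen in view of the members' sequences, CACGTG was present in 6.02% and CAAAACA in 5.56% of all 32851 promoter windows of this length. A match describes the letters and is not evidence of binding.

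Irs2 was higher in db/db in every experiment. It had 17.3, 14.6 and 12.6 TPM in db/db replicates 1, 2 and 3, against 11.1, 5.92 and 9.25 TPM in WT replicates 1, 2 and 3. The lowest db/db library stood above the highest WT library, as it did for 7.85% of all tested genes. The mean was 14.8 ± 2.40 TPM in db/db and 8.77 ± 2.64 TPM in WT HSCs (SD, n = 3 each), a ratio of means of 1.69. The log2 fold change of Irs2 was 0.72 (SE 0.41, 95% interval -0.12 to 1.57), 0.54 above the median of all genes. Experiment by experiment the difference was 0.60, 1.17 and 0.40. Irs2 did not pass over all genes (limma, unadjusted p = 0.0888 and Benjamini-Hochberg adjusted p = 0.919). This difference stood beside the granule and erythroid sums above, whose part in it was not tested. After median-of-ratios scaling Irs2 was 19.0, 12.9 and 10.2 in db/db and 12.2, 7.26 and 8.13 in WT libraries, so the groups then overlapped, with a log2 fold change of 0.55.

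Pik3r1 encodes the main regulatory subunit of class IA PI3K, which holds the catalytic subunit inactive until it binds a phosphorylated partner. It had 28.0, 78.7 and 57.6 TPM in db/db replicates 1, 2 and 3 and 45.6, 30.4 and 64.0 TPM in WT replicates 1, 2 and 3. The groups overlapped, and the highest and the lowest of the 6 values were both db/db libraries. The differences within the experiments were -0.68, 1.34 and -0.15 on the log2 scale. The log2 fold change of Pik3r1 was 0.17 (SE 0.37, 95% interval -0.59 to 0.94) in TPM as deposited and -0.02 once scaled by median of ratios, and neither passed (limma, Benjamini-Hochberg adjusted p = 0.954 and 0.994). Leaving out db/db replicate 2 gave -0.15, and leaving out WT replicate 2 gave -0.10.

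Pik3r1 supplied most of the class IA regulatory transcripts. Of the summed TPM of Pik3r1, Pik3r2 and Pik3r3, it made up 91.2% ± 2.69 in db/db and 88.6% ± 3.07 in WT HSCs (SD, n = 3 each). The ratio of these regulatory transcripts to the class IA catalytic transcripts Pik3ca, Pik3cb and Pik3cd was 0.682, 1.98 and 1.14 in db/db replicates 1, 2 and 3 and 1.18, 0.907 and 1.36 in WT replicates 1, 2 and 3. The WT values lay inside the db/db range. Among all class I catalytic genes, Pik3cg, the subunit that G protein-coupled receptors activate, had the highest mean in both groups, 69.9 ± 18.2 TPM in db/db and 51.7 ± 22.1 TPM in WT HSCs (SD, n = 3 each). In WT replicate 2 Pik3cd was above it, at 31.15 against 26.7 TPM. Pik3cd, the leukocyte subunit, made up 76.6%, 44.5% and 64.1% of the class IA catalytic TPM in db/db replicates 1, 2 and 3 and 73.3%, 79.1% and 72.7% in WT replicates 1, 2 and 3. In db/db replicate 2, Pik3ca, the subunit most tied to insulin signalling, held 39.3% of it, against 10.7% to 19.4% in the other 5 libraries.

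Pik3ip1 encodes a membrane protein that binds the catalytic subunit and inhibits PI3K, and it was the most abundant of the 8 genes. It had 122, 145 and 132 TPM in db/db replicates 1, 2 and 3, against 79.6, 61.4 and 105 TPM in WT replicates 1, 2 and 3. All 3 db/db libraries stood above all 3 WT libraries, and this held after median-of-ratios scaling, with 133, 128 and 107 in db/db and 87.1, 75.3 and 92.5 in WT libraries. Higher values without overlap were seen for 2 of the 7 tested members and 7.85% of all tested genes on the TPM scale, and for 1 member and 5.67% of all genes after scaling. WT replicate 1, which had the most granule transcripts of the WT libraries, lay between the other WT libraries for Pik3ip1 and was the highest WT library for Irs2. Whether the granule and erythroid transcripts had a part in the difference of Pik3ip1 was not tested.

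The mean of Pik3ip1 was 133 ± 11.8 TPM in db/db and 82.0 ± 21.99 TPM in WT HSCs (SD, n = 3 each), a ratio of means of 1.62. The log2 fold change was 0.72 (SE 0.28, 95% interval 0.15 to 1.29), 0.54 above the median of all genes, and 0.53 after median-of-ratios scaling. The interval, for TPM as deposited, lay above 0 but included the median of all genes, 0.18. The differences within the experiments were 0.61, 1.23 and 0.32. Pik3ip1 did not pass over all genes (limma, Benjamini-Hochberg adjusted p = 0.808, range over 18 alternatives 0.195 to 1). Its unadjusted limma p was 0.0158. Of the 7 tested members it was the only one under 0.05, a level that 4.1% of all tested genes reached as higher and 1.25% as lower, and it was again the only one with the experiment as a replicate block, beside 5.41% of all genes higher. The unadjusted limma p was 0.0604 when db/db replicate 2 was left out, 0.0761 when WT replicate 2 was left out and 0.0551 in a fit without a trend, so no member then reached that level. The cells were measured in bulk, so a change in the share of cells with much Pik3ip1 and a change of its RNA per cell cannot be told apart.

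The promoter of Pik3ip1 is shown as the member with the smallest p. Its window is the 250 bases before the start, chr11:3330481-3330730 on the plus strand of GRCm38.p6, from RefSeq. It has no capitals because neither the E-box nor the insulin response core, nor the FoxO element GTAAACA, was found in it on either strand, and its GC content was 53.6%.
Pik3ip1: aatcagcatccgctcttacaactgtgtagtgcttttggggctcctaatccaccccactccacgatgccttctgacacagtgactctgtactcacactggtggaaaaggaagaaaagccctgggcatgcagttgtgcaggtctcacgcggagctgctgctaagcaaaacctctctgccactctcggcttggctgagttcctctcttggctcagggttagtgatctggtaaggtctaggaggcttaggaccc
GTAAACA was present in 3.17% of all promoter windows. Of 12 windows found for 7 of the 8 members, 1 of the Akt1 windows held it, from 161 bases before the start. Insr had no window in the RefSeq table used here.

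The balance of the PI3K inhibitor against the regulatory subunit was compared within libraries. The ratio of Pik3ip1 to Pik3r1 was 4.35, 1.85 and 2.29 in db/db replicates 1, 2 and 3 and 1.74, 2.02 and 1.64 in WT replicates 1, 2 and 3. Db/db replicate 1 stood highest and db/db replicate 2 lay within the WT values. The log2 ratio was 1.40 ± 0.64 in db/db and 0.85 ± 0.15 in WT HSCs (SD, n = 3 each), a difference of 0.55 with overlapping groups (exact two-sided permutation test p = 0.2, adjusted p = 0.6 over 3 ratios). Without db/db replicate 1 the difference was 0.19.

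Akt1 and Akt2 encode the kinases at which the pathway branches, Akt1 being tied to growth and survival and Akt2 to glucose handling. Akt1 had 105, 77.7 and 109 TPM in db/db replicates 1, 2 and 3 and 85.5, 80.7 and 89.1 TPM in WT replicates 1, 2 and 3. In TPM as deposited it had the narrowest range of the 7 tested members, its highest library being 1.41 times its lowest, and the groups overlapped. The mean of Akt1 was 97.1 ± 17.005 TPM in db/db and 85.1 ± 4.198 TPM in WT HSCs (SD, n = 3 each), and its log2 fold change of 0.17 (SE 0.27, 95% interval -0.39 to 0.73) was -0.01 relative to the median of all genes. It did not pass (limma, Benjamini-Hochberg adjusted p = 0.929) and was -0.02 after median-of-ratios scaling.

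Akt2 had 49.98, 42.3 and 51.5 TPM in db/db replicates 1, 2 and 3 and 36.6, 52.5 and 60.3 TPM in WT replicates 1, 2 and 3. It was the 1 tested member with a negative log2 fold change on the TPM scale, -0.03 (SE 0.31, 95% interval -0.66 to 0.61), and it did not pass (limma, Benjamini-Hochberg adjusted p = 0.995). The groups overlapped, and db/db was above WT in experiment 1 and below it in experiments 2 and 3. The ratio of Akt2 to Akt1 was 0.478, 0.544 and 0.472 in db/db replicates 1, 2 and 3 and 0.428, 0.651 and 0.677 in WT replicates 1, 2 and 3. On the log2 scale this ratio was -1.01 ± 0.11 in db/db and -0.80 ± 0.37 in WT HSCs (SD, n = 3 each), a difference of -0.21 (exact two-sided permutation test p = 0.4, adjusted p = 0.6 over 3 ratios).

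**Figure D2:**
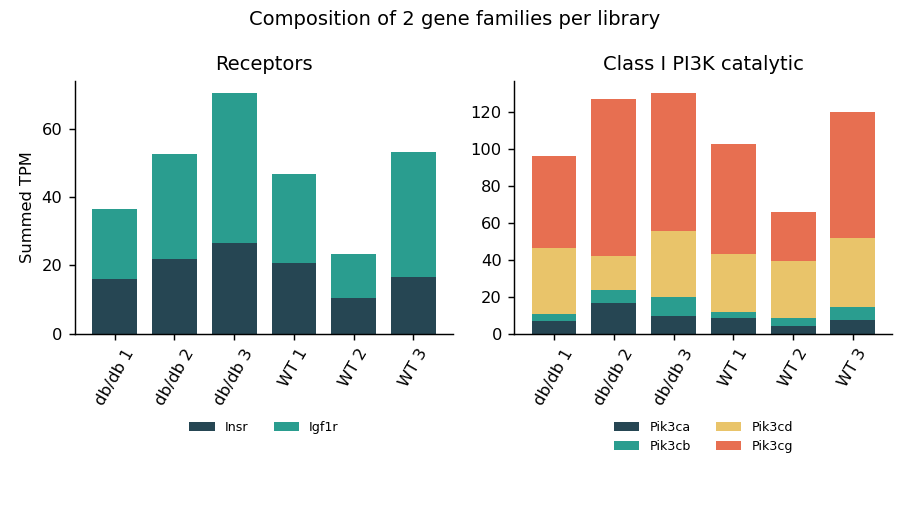
Summed TPM of Insr and Igf1r and of the class I PI3K catalytic genes in each library, stacked by gene, with the 3 db/db libraries left of the 3 WT libraries. WT replicate 2 has the lowest sum in both panels, at 23.3 and 66.1 TPM.

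**Figure D3:**
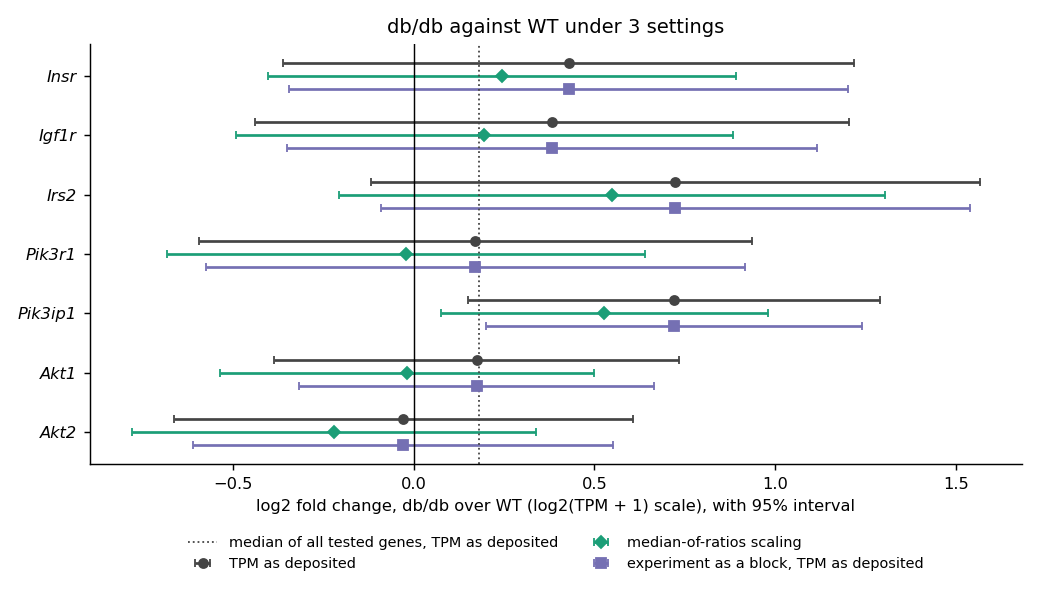
Log2 fold change of db/db over WT with its 95% limma interval for the 7 tested genes, on the TPM values as deposited, after median-of-ratios scaling, and with the experiment as a block. The intervals of Pik3ip1 lie above 0 in the 3 settings drawn and those of the other genes include 0. The dotted line is the median of all tested genes at 0.18 in TPM as deposited, which the Pik3ip1 interval of that setting includes.

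Across the 7 tested members, 6 had a positive log2 fold change in TPM as deposited and 4 after median-of-ratios scaling. Of all 11931 tested genes, 8125 and 6001 were positive on these 2 scales. Their median was 0.38 against 0.18 over all genes on the TPM scale, and 0.20 against 0.00 after scaling. Irs2 and Pik3ip1, the 2 members higher in all 3 experiments, stood beside 22.7% of all tested genes that were. In experiment 1, Insr, Igf1r and Pik3r1 were lower in db/db while Irs2, Pik3ip1, Akt1 and Akt2 were higher. In experiment 2, the 5 genes other than Akt1 and Akt2 were each higher in db/db by 0.98 to 1.34 on the log2 scale. After median-of-ratios scaling these 5 differences were 0.54 to 0.88.

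The rest of the pathway was read from a list of 106 genes in 12 roles, which includes the 8 members and of which 91 were tested. On it, 0 genes passed over all genes in limma with Benjamini-Hochberg adjustment. At an unadjusted p under 0.05, 7 of the 91 were higher in db/db and 0 were lower, beside 4.1% higher and 1.25% lower of all tested genes. After median-of-ratios scaling 5 were higher and 1 was lower, beside 2.49% and 2.98%. The count of higher genes was 1 when WT replicate 2 was left out, beside 2.21% of all tested genes, and 4 when db/db replicate 3 was left out, beside 2.65%. The list's median log2 fold change was 0.22 against 0.18 over all genes, and 0.03 against 0.00 once scaled. Without overlap between the groups, 11 of the 91 were higher in db/db, against 7.85% of all tested genes, and 2, Trib3 and Rps6kb1, were lower, against 2.32%. After scaling 10 were higher, against 5.67%, and 4 were lower, Pik3r2 and Inppl1 being added, against 4.75%.

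**Figure D4:**
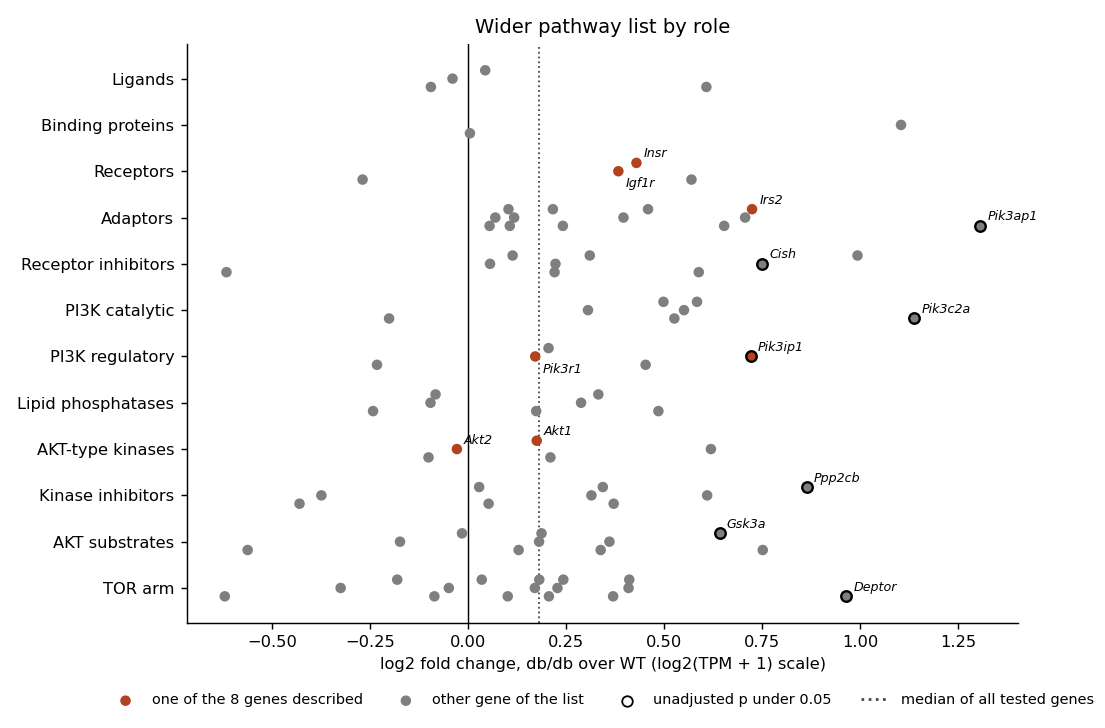
Log2 fold change of db/db over WT for the 91 tested genes of the wider list, 1 row per role, with the genes described here in red, genes with an unadjusted p under 0.05 outlined in black, and the median of all tested genes as a dotted line at 0.18. The 7 outlined genes all lie to the right, from 0.64 for Gsk3a to 1.31 for Pik3ap1.

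The insulin and IGF ligand genes gave little transcript in these cells. Ins1 and Ins2, the mouse insulin genes, were at 0 in all 6 libraries, and Igf1 and Igf2 were at most 3.22 and 3.97 TPM. Of the relaxin-family genes on the list, Insl6 was 25.4 ± 13.1 TPM in db/db and 26.0 ± 9.52 TPM in WT HSCs, and Insl3 was 15.5 ± 10.3 and 9.29 ± 4.82 TPM in db/db and WT HSCs (SD, n = 3 each). Among 8 IGF binding protein genes, 4 were at 0 in all 6 libraries and Igfbp4 stood out at 118 ± 27.0 TPM in db/db and 116 ± 17.2 TPM in WT HSCs. Igfbp7 was listed at 2.32, 0.50 and 5.01 TPM in db/db and at 1.60, 0.16 and 0 TPM in WT replicates 1, 2 and 3. Igf2r, which clears IGF2, was 10.7 ± 0.731 TPM in db/db and 7.18 ± 2.72 TPM in WT HSCs (SD, n = 3 each), and its log2 fold change of 0.57 did not pass.

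Among the adaptors, Pik3ap1, which links B cell and Toll-like receptors to PI3K, had the smallest p of the list. It had 16.7, 23.7 and 10.7 TPM in db/db replicates 1, 2 and 3 and 4.68, 6.42 and 7.04 TPM in WT replicates 1, 2 and 3, without overlap. Its log2 fold change was 1.31 (SE 0.43, limma, Benjamini-Hochberg adjusted p = 0.630), with an unadjusted limma p of 0.00570. The scaffold gene Gab2 was 25.02 ± 3.30 TPM in db/db and 15.9 ± 5.09 TPM in WT HSCs, and Grb2, the most abundant adaptor, was 74.9 ± 19.7 and 72.6 ± 29.6 TPM in db/db and WT HSCs (SD, n = 3 each). Neither passed.

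Of the genes that restrain receptor signalling, Cish, a feedback inhibitor induced by cytokine receptors, had 108, 86.1 and 87.3 TPM in db/db replicates 1, 2 and 3 and 64.7, 42.2 and 61.4 TPM in WT replicates 1, 2 and 3. Its log2 fold change of 0.75 (SE 0.29) had an unadjusted p of 0.0160 in limma and did not pass over all genes. The tyrosine phosphatase gene Ptpn2 had 25.9, 49.6 and 28.7 TPM in db/db replicates 1, 2 and 3 and 21.3, 19.1 and 25.6 TPM in WT replicates 1, 2 and 3. Its groups did not overlap in TPM as deposited and overlapped after scaling. Grb10, an adaptor that inhibits the insulin and IGF receptors, was 88.0 ± 13.99 and 78.9 ± 31.4 TPM in db/db and WT HSCs (SD, n = 3 each). Grb14, its relative, was at 0 in all 6 libraries.

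In the PI3K group, the class II catalytic gene Pik3c2a was low but evenly separated. It had 5.90, 5.07 and 5.59 TPM in db/db replicates 1, 2 and 3 and 2.28, 1.62 and 2.02 TPM in WT replicates 1, 2 and 3, and its differences within the experiments were 1.07, 1.21 and 1.13 on the log2 scale. The log2 fold change of Pik3c2a was 1.14 (SE 0.50) and 0.99 after median-of-ratios scaling, with an unadjusted p of 0.0321 in limma, and it did not pass over all genes. Pik3r4, a partner of the class III kinase, was 15.3 ± 2.99 TPM in db/db and 10.8 ± 1.59 TPM in WT HSCs (SD, n = 3 each). None of the 7 lipid phosphatase genes, which remove the PI3K signal, reached an unadjusted p under 0.05. Those of smallest p were Inpp4a, 8.02 ± 2.41 TPM in db/db and 5.57 ± 2.17 TPM in WT HSCs, and Inpp5e, 23.4 ± 7.26 and 18.2 ± 4.76 TPM in db/db and WT HSCs. The most abundant was Inpp5k at 64.6 ± 9.53 TPM in db/db and 57.4 ± 9.85 TPM in WT HSCs.

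Besides AKT, the kinase group held Sgk1, a relative of AKT, at 8.20, 22.1 and 6.01 TPM in db/db replicates 1, 2 and 3 and 13.9, 3.57 and 5.05 TPM in WT replicates 1, 2 and 3. The groups overlapped.

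Downstream, Ppp2cb, a catalytic subunit of the phosphatase that removes phosphate from AKT among other proteins, was 99.9 ± 20.03 TPM in db/db and 57.3 ± 25.5 TPM in WT HSCs, with an unadjusted p of 0.0133 in limma. Its sister gene Ppp2ca was 185 ± 41.9 TPM in db/db and 151 ± 62.9 TPM in WT HSCs, and Ppp2r5c, a regulatory subunit of the same phosphatase, was 62.3 ± 22.1 and 39.7 ± 11.8 TPM in db/db and WT HSCs (SD, n = 3 each). Gsk3a, a kinase that AKT inhibits, had 95.6, 65.2 and 64.3 TPM in db/db replicates 1, 2 and 3 and 38.7, 44.3 and 60.4 TPM in WT replicates 1, 2 and 3, with an unadjusted limma p of 0.0455 that was 0.133 after scaling, where its groups overlapped. Foxo3, the most abundant of the AKT substrates listed, was 104 ± 5.23 TPM in db/db and 81.6 ± 16.96 TPM in WT HSCs (SD, n = 3 each). Tbc1d4, an AKT substrate that governs glucose transporter traffic, had 5.33, 11.04 and 6.21 TPM in db/db replicates 1, 2 and 3 and 3.45, 3.22 and 5.14 TPM in WT replicates 1, 2 and 3. Deptor, an inhibitor in the TOR complexes, had 11.5, 24.5 and 17.98 TPM in db/db replicates 1, 2 and 3 and 11.0, 8.59 and 6.06 TPM in WT replicates 1, 2 and 3, with an unadjusted limma p of 0.0301 that was 0.0555 after scaling. Rps6kb1, the S6 kinase gene, was 7.30 ± 2.43 TPM in db/db and 11.5 ± 0.984 TPM in WT HSCs, and its unadjusted limma p was 0.154 in TPM as deposited and 0.0374 once scaled by median of ratios. Rps6, the ribosomal protein that S6 kinase phosphorylates, was 2859 ± 110 TPM in db/db and 3080.1 ± 648 TPM in WT HSCs (SD, n = 3 each). None of these genes passed over all genes.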

How the data were processed

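RNA of sorted HSCs was amplified and read as 75-nucleotide pairs from stranded mRNA libraries, per the labels. The authors deposited TPM by gene symbol, a column for each library, made with RSEM and Bowtie2 on mm9, per the submitters' processing notes. The sources used here give no tool versions, no annotation and no word on whether counting used the strand. TPM keeps no read depth, so depth is unknown and no counting interval could be given.

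Columns were matched to samples by the labels. Genes averaging 1 TPM or more, 11931 in all, were fitted as log2(TPM + 1) by genotype alone (limma 3.58.1, R 4.3.3, moderation with a trend). Tests were two-sided and p-values were adjusted by Benjamini and Hochberg's method across the whole table. Fold changes on this scale understate those of low genes. Ratios within libraries were compared with exact permutation tests that did not use the pairing by experiment. The members, lists and tests were chosen with earlier results of these data known. Of the genes first listed, 2 are not reported here and were left out of list counts and sums.

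Genes to name were the 8 members and, per role of the wider list, the 2 of smallest p and the most abundant, apart from others named for a count, a family share or a 0. Alternatives were other pseudocounts, filters, scalings, moderation and weights, a block for the experiment, and each library left out. Libraries were paired by the experiment number in their labels, 1 per genotype. Deviations from group means correlated at 0.04, 0.01 and 0.16 within experiments and at -0.12 to 0.08 between them. In GENCODE M21, exons of Irs1, Irs2 and Pik3ip1 overlap a gene on the opposite strand. The partner of Irs2, 9530052E02Rik, was at 0 in all 6 libraries. Those of Irs1 and Pik3ip1, Gm9747 and Gm12592, were not listed under these symbols in the deposited values.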

Additional observations from a re-analysis of the deposited data

How the results depend on the processing

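Insr, Irs2 and Pik3ip1 kept a positive log2 fold change in all 18 alternatives run, from 0.17 to 0.64, 0.49 to 0.90 and 0.53 to 0.91, and no member passed over all genes in any of them (limma, Benjamini-Hochberg adjusted p from 0.195 upward). Relative to the median of all genes in the same alternative, these 3 ran from 0.06 to 0.48, 0.27 to 0.74 and 0.45 to 0.72. The sign turned in 5 of these alternatives for Pik3r1, 3 for Akt1, 4 for Akt2 and 1 for Igf1r. Pik3r1 was -0.021 after median-of-ratios scaling, with or without the replicate block, and -0.0068 after quantile normalization. Akt1 was -0.0189, with or without the block, and -0.0042 in the same settings. Akt2 was 0.15 with array weights. With each library left out in turn, Pik3r1 ran from -0.15 to 0.58, Akt2 from -0.23 to 0.12 and Igf1r from -0.0231 to 0.70.

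Against 1 member with an unadjusted p under 0.05, there were 2 without a filter (Pik3ip1 and Irs2, beside 2.5% of 23955 genes higher) and 0 without a trend (beside 3.83% higher), and 0 to 1 with libraries left out. The wider list had 4 such genes without a trend and 11 with array weights (12.1% of the list, beside 11.5% of all genes higher), against 7, and 1 to 9 with libraries left out, the 9 being without WT replicate 3 (beside 7.85% of all genes higher). Over all genes, 4 passed at an adjusted p under 0.05, against 1 after median-of-ratios scaling, 1 after quantile normalization, 1 with the robust prior, 0 without a trend (where 457 stood higher and 148 stood lower with an unadjusted p under 0.05) and 16 with array weights. Leaving out libraries gave 0 to 16, 0 being without db/db replicate 2 (where 333 stood higher and 122 stood lower with an unadjusted p under 0.05) and 16 without WT replicate 1.

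With the experiment as a replicate block, 6 genes passed over all genes. At an unadjusted p under 0.05 the counts were 1 member and 8 genes of the wider list, all higher in db/db. The 8 were 8.79% of the list, beside 5.41% of all tested genes higher. The block changed no call of a member. With libraries left out, the difference in log2 ratio of Insr to Igf1r ran from -0.23 to 0.21, that of Akt2 to Akt1 from -0.42 to -0.09 and that of Pik3ip1 to Pik3r1 from 0.19 to 0.81. With the libraries paired by experiment, an exact sign-flip test gave p of 0.5 or more for each of the 3 ratios. With only 3 pairs this test cannot reach a p under 0.05, whatever the values. The ratio of Pik3ip1 to Pik3r1 was higher in db/db in 2 of 3 experiments. The planned ratio of Irs2 to Irs1 was not formed because Irs1 was at 0 in 3 libraries. Unknown depth limits what can be said of genes near 0, Irs1 first among them.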

Other observations

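The genes whose log2 levels were most like those of each tested member were looked up among 9505 tested genes averaging 5 TPM or more, by Pearson correlation over the 6 libraries and as a description only. With 6 libraries and so many genes, coefficients this high are common: 822 genes exceeded 0.9 with Igf1r and 53 with Akt2. For Pik3ip1 the closest was Pik3c2b, a class II PI3K catalytic gene of the wider list, at 0.996. Pik3c2b had 10.7, 12.3 and 11.9 TPM in db/db replicates 1, 2 and 3 and 7.82, 6.03 and 9.34 TPM in WT replicates 1, 2 and 3, so its groups did not overlap either. Next to Pik3ip1 was Lrp8, an apolipoprotein E receptor gene, at 0.993.

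Insr was most like Thrap3 and Car5b, at 0.998 and 0.990, and Igf1r like Sipa1l3 and Prrc1, at 0.997 and 0.996. Irs2 was most like Atxn2l and Mtbp, at 0.993 and 0.985. Pik3r1 was most like Etnk1 and Tm9sf3, at 0.996 and 0.995. Akt1 was most like Gtf2h1 and F2rl3, at 0.989 and 0.987, and Akt2 like Exosc7 and Gas6, at 0.989 and 0.986. Among the members themselves, Irs2 and Pik3ip1 correlated at 0.83 on the TPM scale and at 0.81 after median-of-ratios scaling. Akt1 and Pik3r1 correlated at -0.24 on the TPM scale and at -0.97 after scaling, so that relation appeared only with the scaling.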
